A study of Mus musculus with 27 samples.

Results

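Described here are 9 genes of the smooth muscle contractile apparatus in the mouse intestine: Acta2, Actg2, Myh11, Myl9, Tpm2, Tagln, Cnn1, Lmod1 and Des. They were chosen by symbol from a gene expression table of 55401 genes, and each symbol matched 1 entry. The table holds RNA-seq values of 27 intestinal libraries, 3 in each of 9 groups, from male wildtype C57BL/6 mice of 6 to 8 weeks. Irradiated mice received 60Co gamma rays at 72 R/min, and CBLB502, a flagellin-derived agonist of the innate receptor TLR5 used as a radioprotectant, was injected intraperitoneally at 0.2 mg/kg. The groups were 15 Gy + CBLB502 at 24 h, 15 Gy at 6 h, 24 h and 3 d, 6 Gy + CBLB502 at 24 h, 6 Gy at 24 h, 6 Gy at 6 h, CBLB502 alone at 24 h, and an untreated control. The design text lists 7 groups of 10 mice, with a PBS control and with CBLB502 given 0.5 h before 15 Gy. It does not cover 6 Gy at 24 h or 6 Gy + CBLB502, so the interval between injection and the 6 Gy exposure is unknown. Whether each library came from its own mouse, and which intestinal segment and layers were taken, is not stated, so the p-values below measure the spread between these libraries, which may be technical.

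Smooth muscle contracts when a rise in calcium activates myosin light chain kinase, which phosphorylates the regulatory light chain of myosin and lets myosin heavy chains pull on actin filaments. In the gut this apparatus fills the circular and longitudinal layers of the muscle coat and the thin muscularis mucosae, and it is also found in vessel walls and, for alpha-smooth muscle actin, in pericytes and myofibroblasts around the crypts. Absorptive and secretory epithelium makes its cytoskeleton mainly from the non-muscle actins and myosins.

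Total counts ran from 57.4 to 87.1 M per library. The deposited whole numbers pile up on steps of 4: 900 to 1365 genes per library are listed at a count of 4, against 117 to 235 at a count of 5. A group with no count is therefore given a floor of 3 steps, or 12 counts over the group. Levels are in FPKM (fragments scaled to gene length and to mapped fragments) as deposited. Differences are log2 fold changes from edgeR's quasi-likelihood test on the counts, with p-values adjusted by Benjamini-Hochberg over all genes tested. Standard errors were derived as the absolute log2 fold change over the square root of the F statistic of that test. Intervals given for log2 differences rest on a normal approximation with these errors, so they are narrower than the F test would give. The 2 scales are offset: with 0.1 added before the logarithm, the median tested gene stood 0.62 higher on the log2 FPKM scale in 6 Gy 24 h than in control libraries, and 0.65 higher in 6 Gy + CBLB502 24 h, while the count fit put that median at 0.07 in both. A difference in FPKM between these groups and control therefore holds a common shift of that size, and calls are taken from the count fit.

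The 9 genes were scarce in nearly all libraries and most abundant 24 h after 6 Gy. Their summed level was 29.7 ± 33.9 FPKM in 6 Gy 24 h libraries, 14.2 ± 7.91 in 6 Gy + CBLB502 24 h, 10.5 ± 15.2 in 15 Gy 24 h, 4.58 ± 1.82 in 15 Gy 3 d, 3.19 ± 1.82 in 15 Gy + CBLB502 24 h, 2.86 ± 1.29 in 6 Gy 6 h, 2.11 ± 0.398 in 15 Gy 6 h, 1.60 ± 0.0838 in CBLB502 24 h and 2.12 ± 1.31 in control (SD, n = 3 each). Non-muscle beta-actin, Actb, ran from 473 to 1230 FPKM over the same libraries. The spread between replicates was large: the sum was 68.1, 4.18 and 16.7 FPKM in replicates 1, 2 and 3 of 6 Gy 24 h, 9.05, 23.3 and 10.2 in 6 Gy + CBLB502 24 h, 0.829, 28.1 and 2.64 in 15 Gy 24 h, and 1.24, 1.49 and 3.62 in control. Replicate 1 of 6 Gy 24 h and replicate 2 of 15 Gy 24 h stood far above the other libraries of their groups, and replicate 1 of 15 Gy 24 h held the lowest sum of all 27. When the groups were ordered by mean level, for each gene and for the sum, 78 of the 80 neighbouring pairs of groups overlapped in their ranges. The layers taken are not stated, so the amount of muscle in a library and the RNA per muscle cell cannot be told apart.

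**Figure D1:**
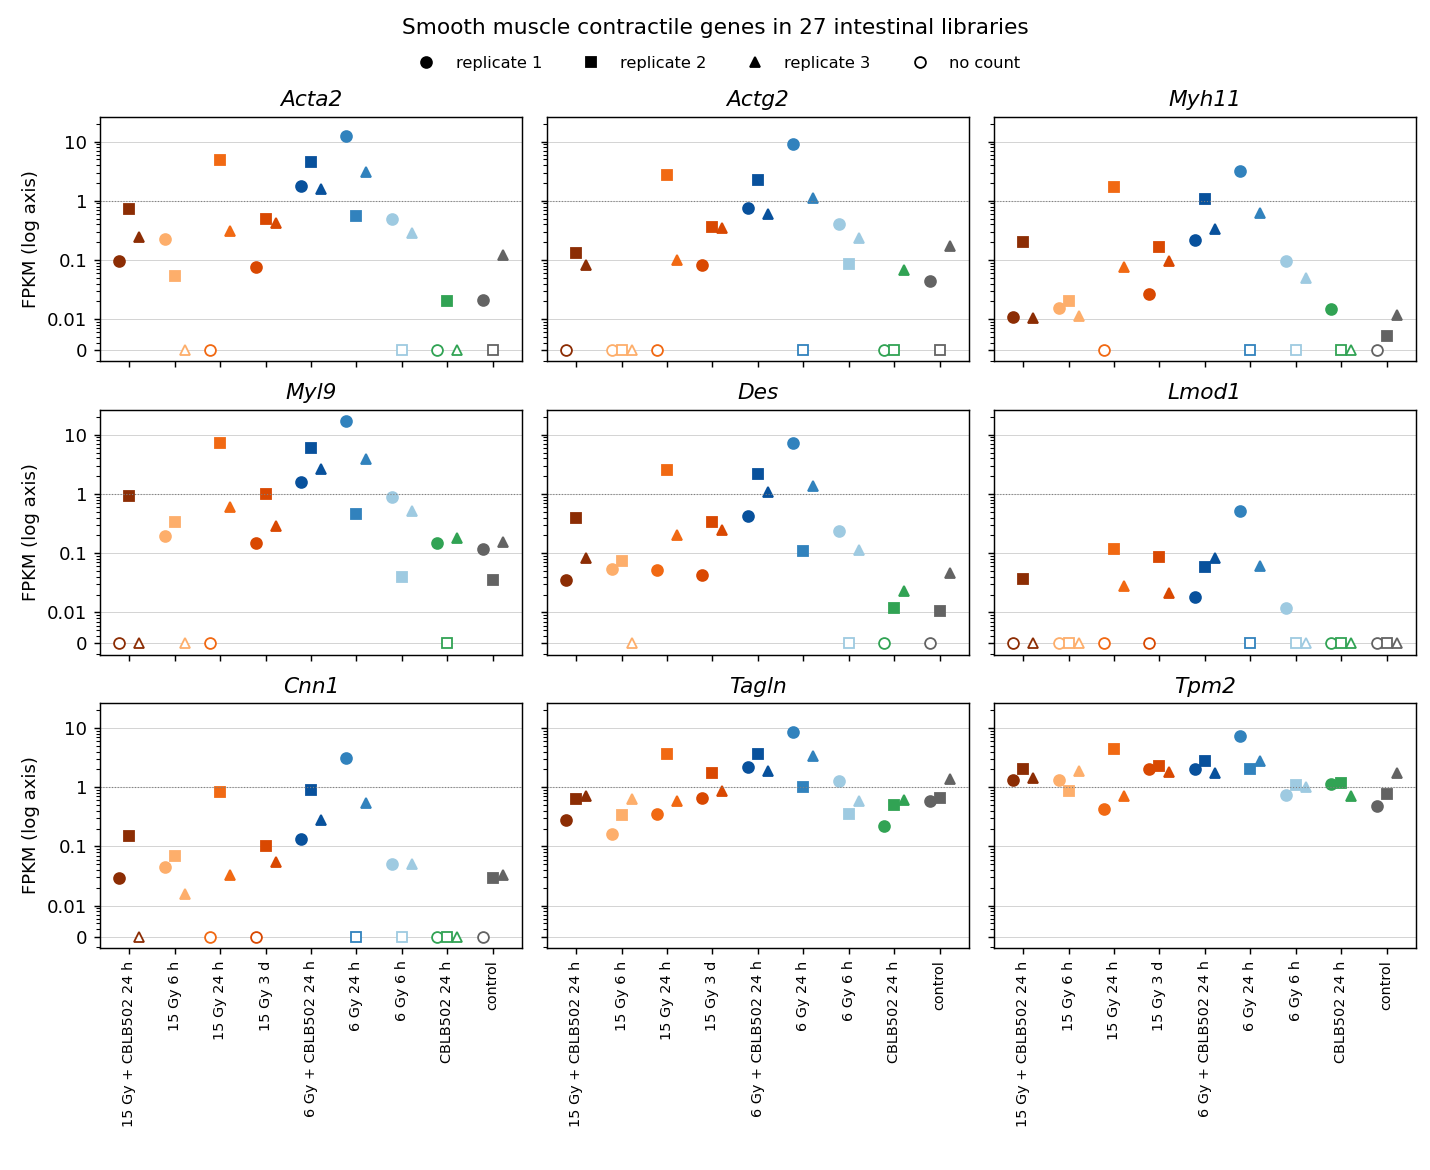
FPKM of each of the 9 genes (log axis) in every library, by group, with a marker shape for each replicate; open markers on the lowest line are libraries with no count, and the dotted line is 1 FPKM. The 6 libraries taken 24 h after 6 Gy, with or without CBLB502, and replicate 2 of 15 Gy 24 h hold most values above 1 FPKM, while Tagln and Tpm2 have counts in all 27 libraries.

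Among the thick filament genes, Myh11 (chromosome 16, 14194535 to 14291372 on GRCm38, minus strand) encodes smooth muscle myosin heavy chain, the most specific marker of differentiated smooth muscle in the list. It had 3.18, 0 and 0.622 FPKM in replicates 1, 2 and 3 of 6 Gy 24 h and 0.222, 1.06 and 0.330 in 6 Gy + CBLB502 24 h. Myh11 had 0, 1.74 and 0.0762 FPKM in 15 Gy 24 h libraries, and 0, 0.00528 and 0.0118 in control. Across the other 5 groups it ran from 0 to 0.204 FPKM. The 3 libraries of 6 Gy + CBLB502 24 h lay above all control libraries, whereas 6 Gy 24 h and 15 Gy 24 h each included a library with no Myh11 count. Control libraries together held 12 Myh11 counts, or 3 steps, so the size of its ratios is loosely set: in steps per total count, the ratio to control was 199 (95% exact interval 67.6 to 967) for 6 Gy 24 h and 89.6 (30.3 to 438) for 6 Gy + CBLB502 24 h, intervals that cover counting error only.

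Myl9 (chromosome 2, 156775420 to 156781658, plus strand) encodes the smooth muscle form of the regulatory light chain, the subunit that the kinase phosphorylates. Its level was 16.9, 0.466 and 3.83 FPKM in replicates 1, 2 and 3 of 6 Gy 24 h and 1.59, 5.93 and 2.63 in 6 Gy + CBLB502 24 h. Myl9 had 0, 7.20 and 0.596 FPKM in 15 Gy 24 h libraries, and 0.119, 0.0348 and 0.154 in control. All 3 libraries of both 6 Gy 24 h groups exceeded all 3 control libraries, and the value of 16.9 FPKM was the highest of any of the 9 genes. In the other 5 groups Myl9 ran from 0 to 0.992 FPKM.

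Serum response factor drives many contractile genes through an A/T-rich element called the CArG box, so the start regions of the 9 genes were searched for it on both strands in 300-base RefSeq windows (250 bases before and 50 after each start, GRCm38.p6). Windows were matched for 6 genes: Acta2, Des, Cnn1, Myl9, Tpm2 and Lmod1. A strict CArG box was found in 1 of these 6, Myl9, against 535 of all 32851 windows (1.63%); a variant with 1 C or G in its centre was found in Myl9 and Acta2, against 8.50% of all windows. The letters TATAAA were found in none of the 6, against 13.6% of all windows. The Myl9 sequence is shown because it holds both forms. The stretch before the annotated start, chr2:156775214-156775419 on the plus strand, has the strict box first and the variant second in capitals, and a match is a description of letters, not of binding:
Myl9: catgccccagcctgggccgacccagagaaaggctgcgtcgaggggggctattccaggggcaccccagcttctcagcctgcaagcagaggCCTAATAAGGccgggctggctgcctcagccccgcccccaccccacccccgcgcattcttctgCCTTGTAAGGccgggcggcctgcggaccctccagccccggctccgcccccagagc

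Of the thin filament genes, Acta2 (chromosome 19, 34241090 to 34255590, minus strand) encodes alpha-smooth muscle actin, the form prevalent in vascular muscle and in myofibroblasts. Acta2 was measured at 12.3, 0.551 and 3.06 FPKM in replicates 1, 2 and 3 of 6 Gy 24 h and 1.77, 4.53 and 1.56 in 6 Gy + CBLB502 24 h. Acta2 had 0, 4.84 and 0.314 FPKM in 15 Gy 24 h libraries, and 0.0209, 0 and 0.122 in control. Again each library of both 6 Gy 24 h groups was above each control library, while 15 Gy 24 h ran from 0, as low as any control library, to 4.84 FPKM. By mean level the order was 6 Gy 24 h (5.30 ± 6.17 FPKM), 6 Gy + CBLB502 24 h (2.62 ± 1.66), 15 Gy 24 h (1.72 ± 2.71), 15 Gy + CBLB502 24 h (0.358 ± 0.331), 15 Gy 3 d (0.330 ± 0.223), 6 Gy 6 h (0.257 ± 0.245), 15 Gy 6 h (0.0933 ± 0.119), control (0.0475 ± 0.0650) and CBLB502 24 h (0.00665 ± 0.0115; SD, n = 3 each). Each neighbouring pair in this order overlapped.

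Actg2 (chromosome 6, 83512905 to 83536265, minus strand) encodes gamma-smooth muscle actin, the form typical of visceral muscle such as the gut wall. It stood at 8.92, 0 and 1.13 FPKM in replicates 1, 2 and 3 of 6 Gy 24 h and 0.742, 2.24 and 0.601 in 6 Gy + CBLB502 24 h. Actg2 had 0, 2.68 and 0.101 FPKM in 15 Gy 24 h libraries, and 0.0443, 0 and 0.169 in control. Of these 3 irradiated groups, 6 Gy + CBLB502 24 h was separate from control, and none of the 3 libraries of 15 Gy 6 h had a count. The Acta2 level exceeded that of Actg2, per length, by 1.38 and 2.71 times in replicates 1 and 3 of 6 Gy 24 h and by 2.39, 2.02 and 2.59 times in 6 Gy + CBLB502 24 h.

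Tpm2 (chromosome 4, 43514711 to 43523765, minus strand) encodes beta-tropomyosin, which lies along actin filaments in smooth and skeletal muscle, and it behaved unlike the actins. It had 7.44, 2.05 and 2.75 FPKM in replicates 1, 2 and 3 of 6 Gy 24 h and 1.999, 2.77 and 1.73 in 6 Gy + CBLB502 24 h. Tpm2 had 0.420, 4.47 and 0.710 FPKM in 15 Gy 24 h libraries, and 0.475, 0.758 and 1.73 in control. Tpm2 was at or above 1 FPKM in 19 of 27 libraries, and it ran from 0.702 to 2.28 FPKM in the other 5 groups. Among those 5, all 3 libraries of 15 Gy 3 d (1.78 to 2.28 FPKM) lay above control in FPKM.

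Tagln (chromosome 9, 45929619 to 45936058, minus strand) encodes transgelin, also called SM22-alpha, which binds and bundles actin filaments. Its level was 8.57, 0.999 and 3.39 FPKM in replicates 1, 2 and 3 of 6 Gy 24 h and 2.15, 3.62 and 1.90 in 6 Gy + CBLB502 24 h. Tagln had 0.358, 3.64 and 0.573 FPKM in 15 Gy 24 h libraries, and 0.579, 0.651 and 1.36 in control. Like Tpm2, Tagln had counts in each of the 27 libraries and a higher control level than the other 7 genes. Its gene body overlaps 94 bases of Pcsk7 and 3627 bases of Gm48529, both on the opposite strand, and without a stated strand setting reads of these genes cannot be told apart.

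Cnn1 (chromosome 9, 22099216 to 22109630, plus strand) encodes calponin, which restrains actin-activated myosin. It reached 3.06, 0 and 0.533 FPKM in replicates 1, 2 and 3 of 6 Gy 24 h, 0.136, 0.898 and 0.284 in 6 Gy + CBLB502 24 h, and 0, 0.0295 and 0.0326 in control, and no library given CBLB502 alone had a count. Lmod1 (chromosome 1, 135324807 to 135368065, plus strand) encodes leiomodin, which nucleates actin filaments; it was the lowest of the 9, at 0.521, 0 and 0.0610 FPKM in 6 Gy 24 h, 0.0184, 0.0579 and 0.0826 in 6 Gy + CBLB502 24 h, and no count in any control library. Against the floor of 12 counts over the control group, Lmod1 was at least 16.8-fold higher in 6 Gy 24 h and at least 4.67-fold higher in 6 Gy + CBLB502 24 h. Replicate 1 held 129 of the 145 Lmod1 counts of 6 Gy 24 h, and without it the bound was 2.74-fold. Both genes failed the filter on low values (at least 1 FPKM in at least 3 libraries), which the other 7 passed. Myh11 passed with exactly 3 libraries, Actg2 with 4, Des with 5, and Acta2 and Myl9 with 6 each. All of these libraries were in 6 Gy 24 h, 6 Gy + CBLB502 24 h or 15 Gy 24 h, the groups in which these genes were high. The number of genes that passed is therefore no evidence of a change, and the filter favours calls of these genes in those groups.

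Des (chromosome 1, 75360329 to 75368579, plus strand) encodes desmin, the muscle intermediate filament that ties dense bodies to the cell border. Des was at 7.26, 0.108 and 1.35 FPKM in replicates 1, 2 and 3 of 6 Gy 24 h and 0.422, 2.18 and 1.09 in 6 Gy + CBLB502 24 h. Des had 0.0512, 2.57 and 0.205 FPKM in 15 Gy 24 h libraries, and 0, 0.0108 and 0.0469 in control. Every library of both 6 Gy 24 h groups was above every control library, and the other 5 groups ran from 0 to 0.393 FPKM.

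Against control, 4 of the 9 genes rose 24 h after 6 Gy: desmin, the 2 myosin subunits and alpha-smooth muscle actin. Des was higher by 6.60 ± 1.89 (SE) on the log2 scale (edgeR adjusted p = 0.0113), Acta2 by 6.17 ± 1.93 (adjusted p = 0.0185), Myh11 by 7.08 ± 2.28 (adjusted p = 0.0217) and Myl9 by 5.43 ± 2.001 (adjusted p = 0.0419). In this comparison 33.0% of the 11118 genes tested were called, 16.6% as higher, with 1826 genes called lower. The 4 genes passed the filter only through groups in which they were high, so their calls cannot be weighed fairly against that share. In the same edgeR fit the other 3 tested genes had fitted differences of 4.91 ± 1.99 for Actg2 (adjusted p = 0.0648), 1.47 ± 0.61 for Tpm2 (0.0701) and 1.73 ± 0.82 for Tagln (0.108), which did not pass 0.05. With no filter, where all 9 could be fitted, 3 of 9 were called (Acta2, Des and Myh11) against 9.64% of 31513 genes. The median fitted difference of the 9 was 5.36, or 5.08 with Lmod1 at its bound, against 0 over all genes with a count.

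These calls hang on single libraries. Without replicate 1 of 6 Gy 24 h none of the 7 was called, although edgeR still fitted Des 4.57 higher (adjusted p = 0.0692) and Acta2 4.59 higher (adjusted p = 0.0837). Without control replicate 1 or control replicate 2, Des alone was called. Without replicate 2 of 6 Gy 24 h, 6 of the 7 were called. On scaled counts, 3 of the 9 genes (Acta2, Des and Myl9) had all 3 libraries of 6 Gy 24 h above all 3 of control, where 25.2% of genes tested did. These 3 passed the filter only through groups in which they were high, so they cannot be weighed fairly against that share. On the FPKM scale, which holds the common shift, Tpm2 also lay above control.

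With CBLB502 and 6 Gy, 3 of the 9 genes rose against control at 24 h, and the libraries were closer to each other. Des was higher by 5.41 ± 1.82 on the log2 scale (edgeR adjusted p = 0.0242), Acta2 by 5.18 ± 1.86 (adjusted p = 0.0336) and Myh11 by 5.89 ± 2.20 (adjusted p = 0.0402). In this comparison 37.3% of genes tested were called, 19.8% as higher. These 3 genes too passed the filter only through groups in which they were high. Their calls cannot be weighed fairly against that share. By edgeR, Myl9 was fitted 4.40 ± 1.92 higher (adjusted p = 0.0776), Actg2 3.46 ± 1.89 (0.159), Tagln 0.98 ± 0.80 (0.353) and Tpm2 0.55 ± 0.61 (0.499), none of which passed 0.05. On scaled counts 7 of the 9 genes, the exceptions being Tagln and Tpm2, had all 3 libraries above every control library, where 28.3% of genes tested did. Of these 7, Cnn1 and Lmod1 failed the filter, and the others passed it only through groups in which they were high. The 7 therefore cannot be weighed fairly against that share. On the FPKM scale, which holds the common shift, all 9 lay above control, Tpm2 by the margin between 1.733 and 1.725 FPKM. No share over all genes is given on that scale. None was called without control replicate 1, without control replicate 2 or without replicate 2 of 6 Gy + CBLB502 24 h. With no filter 2 of 9 were called (Acta2 and Des) against 11.8% of genes.

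At 24 h after 15 Gy no gene of the 9 was called against control, where 4.94% of genes tested were. At an unadjusted p under 0.05 edgeR had 4 of the 7, and DESeq2 called 2 after adjustment (Des and Myh11), while limma on FPKM called 0. The fitted differences were nevertheless large, at 6.43 ± 2.23 for Myh11 (edgeR adjusted p = 0.0956), 5.40 ± 1.82 for Des (0.0855) and 4.97 ± 1.84 for Acta2 (0.119). They were much smaller without replicate 2, where edgeR fitted Myh11 2.64 higher (adjusted p = 0.544) and Des 2.69 higher (adjusted p = 0.429), and where its values for Tagln, Tpm2 and Actg2 were -0.94, -0.84 and -0.46, below control. Lmod1 had 50 counts in this group, a level at least 4.17-fold above the floor set for control. Of these, 40 were in replicate 2, and without it the 10 counts left were under the floor.

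In the remaining groups set against control none of the 7 tested genes passed 0.05 in edgeR, DESeq2 or limma, and by edgeR 0 of 7 did so at an unadjusted p either. The background of called genes was 29.0% for 15 Gy 6 h, 29.4% for 15 Gy 3 d, 16.9% for 15 Gy + CBLB502 24 h, 28.4% for 6 Gy 6 h and 5.74% for CBLB502 24 h. At 15 Gy 3 d, 1 of the 9 genes, Myh11, had all 3 libraries above control on both scales, and Tpm2 did on FPKM alone (20.8% of genes tested did on scaled counts). Myh11 had a fitted difference of 3.72 ± 2.09 (edgeR adjusted p = 0.197). In libraries given CBLB502 alone, raw counts of the 9 genes, not scaled to depth, were at or below those of control. The group held 4 Acta2, 10 Actg2 and 12 Des counts, against 27, 29 and 19 in control. After scaling, edgeR fitted Myl9 0.11 ± 1.91 higher (adjusted p = 0.986) and the other tested genes lower. At such counts the differences were loosely bounded; for Acta2 the 95% interval on the log2 scale ran from -7.33 to 2.08, and for Tpm2, the best measured gene, from -1.21 to 1.17.

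**Figure D2:**
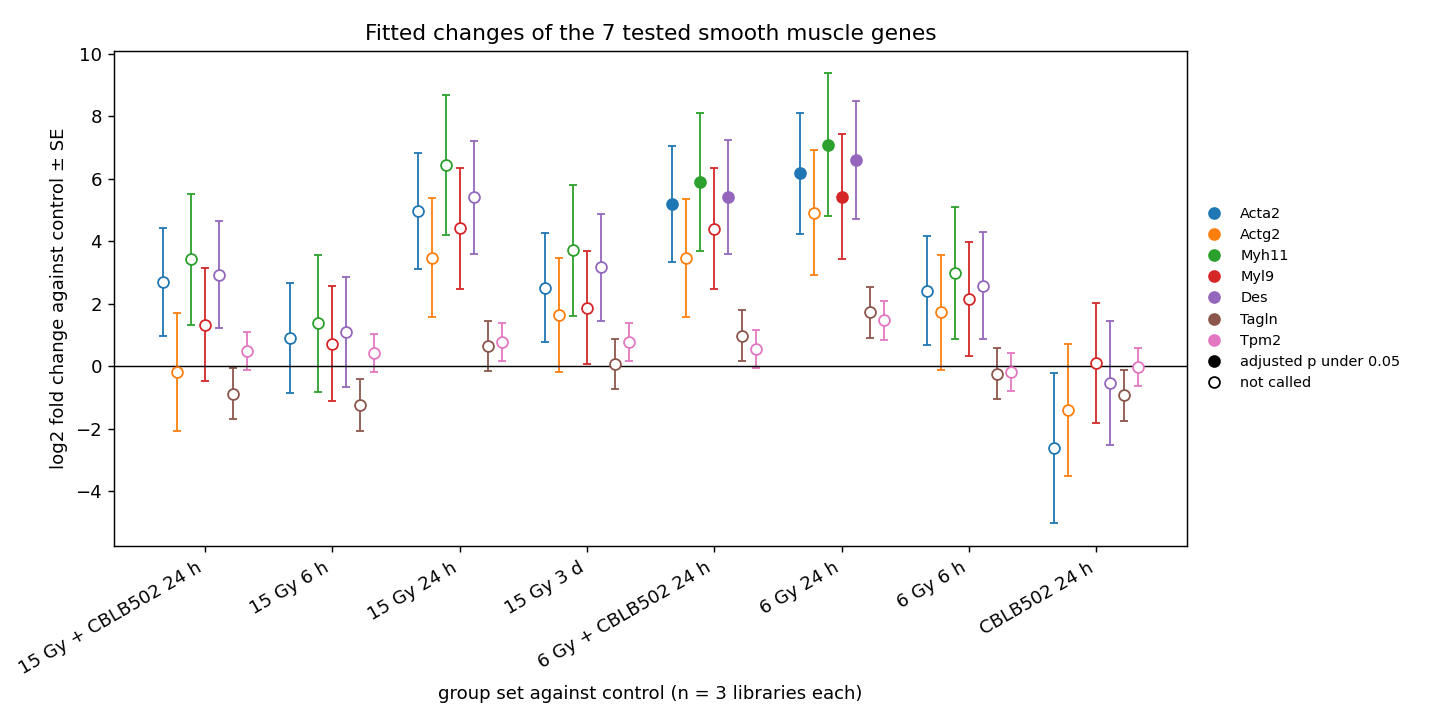
Fitted log2 fold change against control with its standard error (edgeR, n = 3 libraries a group) for the 7 tested genes in 8 comparisons; filled points have an adjusted p under 0.05, and genes with no count in 1 of the groups, or at most 12 counts in both, are not drawn. Filled points occur only for 6 Gy 24 h (4 genes) and 6 Gy + CBLB502 24 h (3 genes), and the error bars of Tagln and Tpm2 are the shortest.

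With time after 6 Gy, Tpm2 rose between 6 h and 24 h, by 1.66 ± 0.62 on the log2 scale (edgeR adjusted p = 0.0419), where 35.2% of genes tested were called. It stood at 7.44, 2.05 and 2.75 FPKM in 6 Gy 24 h and at 0.728, 1.11 and 0.990 FPKM in 6 Gy 6 h. The call was lost without any one of the 6 Gy 6 h libraries, and without replicate 1 of 6 Gy 24 h the edgeR difference was 0.90 (adjusted p = 0.307). In edgeR, Des had a fitted difference of 4.02 ± 1.62 (adjusted p = 0.0595) and Acta2 one of 3.76 ± 1.68 (adjusted p = 0.0864). Acta2 was at 0.489, 0 and 0.281 FPKM in 6 Gy 6 h and Des at 0.234, 0 and 0.112 FPKM, so replicates 1 and 3 were above every control library for both genes.

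After 15 Gy the only gene called between 6 h and 24 h was Actg2 (edgeR adjusted p = 0.0219, with 32.2% of genes tested called). Actg2 passed the filter only through groups in which it was high, so its call cannot be weighed fairly against that share. Since no library of 15 Gy 6 h had an Actg2 count, the difference is a bound: Actg2 was at least 32.5-fold higher in 15 Gy 24 h than the 15 Gy 6 h floor, and 1 of the 3 libraries of 15 Gy 24 h had no count either. Without replicate 2 of 15 Gy 24 h, which held 361 of 375 counts, the bound was 1.86-fold and the adjusted p was 0.210, and it was between 0.0564 and 0.0655 without any one of the 15 Gy 6 h libraries. From 24 h to 3 d after 15 Gy none of the 7 was called (25.3% of genes tested were), and fitted differences for 15 Gy 3 d against 15 Gy 24 h ran from -2.71 for Myh11 to 0.01 for Tpm2. The 3 libraries at 3 d were closer together, with 3.04, 6.60 and 4.11 FPKM summed over the 9 genes, against 0.829, 28.1 and 2.64 at 24 h.

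Between doses none of the 7 passed 0.05 in edgeR. At 6 h, Actg2 was at least 8.77-fold lower in 15 Gy libraries, which had no count, than in 6 Gy libraries, which had 0.403, 0.0852 and 0.235 FPKM. Its adjusted p was 0.0505 in edgeR (1 of 7 at an unadjusted p under 0.05), and DESeq2 called it, with 43.2% of genes tested called. All 3 libraries of 15 Gy 6 h lay below those of 6 Gy 6 h for this gene, as for 26.5% of genes tested. At 24 h the fitted differences for 15 Gy against 6 Gy ran from -1.43 for Actg2 to -0.65 for Myh11, with adjusted p from 0.384 to 0.825 in edgeR and 15.6% of genes tested called. No gene of the 7 was under an unadjusted p of 0.05 there, while limma on FPKM called Tpm2.

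CBLB502 given with radiation gave no called difference in the 7 tested genes by edgeR, DESeq2 or limma, and 0 of 7 at an unadjusted p under 0.05 by edgeR. In 6 Gy + CBLB502 24 h against 6 Gy 24 h, fitted differences ran from -1.45 ± 1.68 for Actg2 to -0.74 ± 0.80 for Tagln (edgeR adjusted p = 1 for all 7). No gene of the 11118 was called there by edgeR (0.0%), with 303 at an unadjusted p under 0.05, while DESeq2 called 7. In 15 Gy + CBLB502 24 h against 15 Gy 24 h they ran from -3.67 ± 1.90 for Actg2 to -0.27 ± 0.60 for Tpm2 (adjusted p from 0.662 to 0.945), again with 0.0% called, 867 at an unadjusted p under 0.05 and 63 called by DESeq2. The intervals were wide: for Acta2 the 95% interval on the log2 scale ran from -3.93 to 1.95 at 6 Gy and from -5.36 to 0.81 at 15 Gy, so large differences were not detectable at this spread. The sign itself rested on 1 library: without replicate 1 of 6 Gy 24 h the difference turned positive for 6 of the 7 genes at 6 Gy (0.25 to 1.15), and without replicate 2 of 15 Gy 24 h for 6 of the 7 at 15 Gy (0.070 to 1.34). Terms for whether CBLB502 acted differently with radiation than without it were called by edgeR for none of the 7, with 0 at an unadjusted p under 0.05, at 6 Gy (0.324% of genes tested called) or at 15 Gy (0.225%).

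The make-up of the summed level differed between groups along with its size. Tpm2 and Tagln together made 23.5%, 73.1% and 36.7% of the summed FPKM in replicates 1, 2 and 3 of 6 Gy 24 h, 45.8%, 27.4% and 35.6% in 6 Gy + CBLB502 24 h, 93.8%, 28.9% and 48.7% in 15 Gy 24 h, and 85.1%, 94.6% and 85.2% in control. Thus in control libraries these 2 genes supplied most of the sum. The actins, myosins, desmin and calponin of the list supplied most of it in 2 of 3 libraries of 6 Gy 24 h, in all 3 of 6 Gy + CBLB502 24 h and in 2 of 3 of 15 Gy 24 h. Where Acta2 and Myl9 were both present in these 3 irradiated groups, their ratio ran from 0.847 to 1.90: Myl9 stood at 1.38, 0.847 and 1.25 times the Acta2 level in 6 Gy 24 h, at 0.900, 1.31 and 1.69 times in 6 Gy + CBLB502 24 h and at 1.49 and 1.90 times in replicates 2 and 3 of 15 Gy 24 h.

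**Figure D3:**
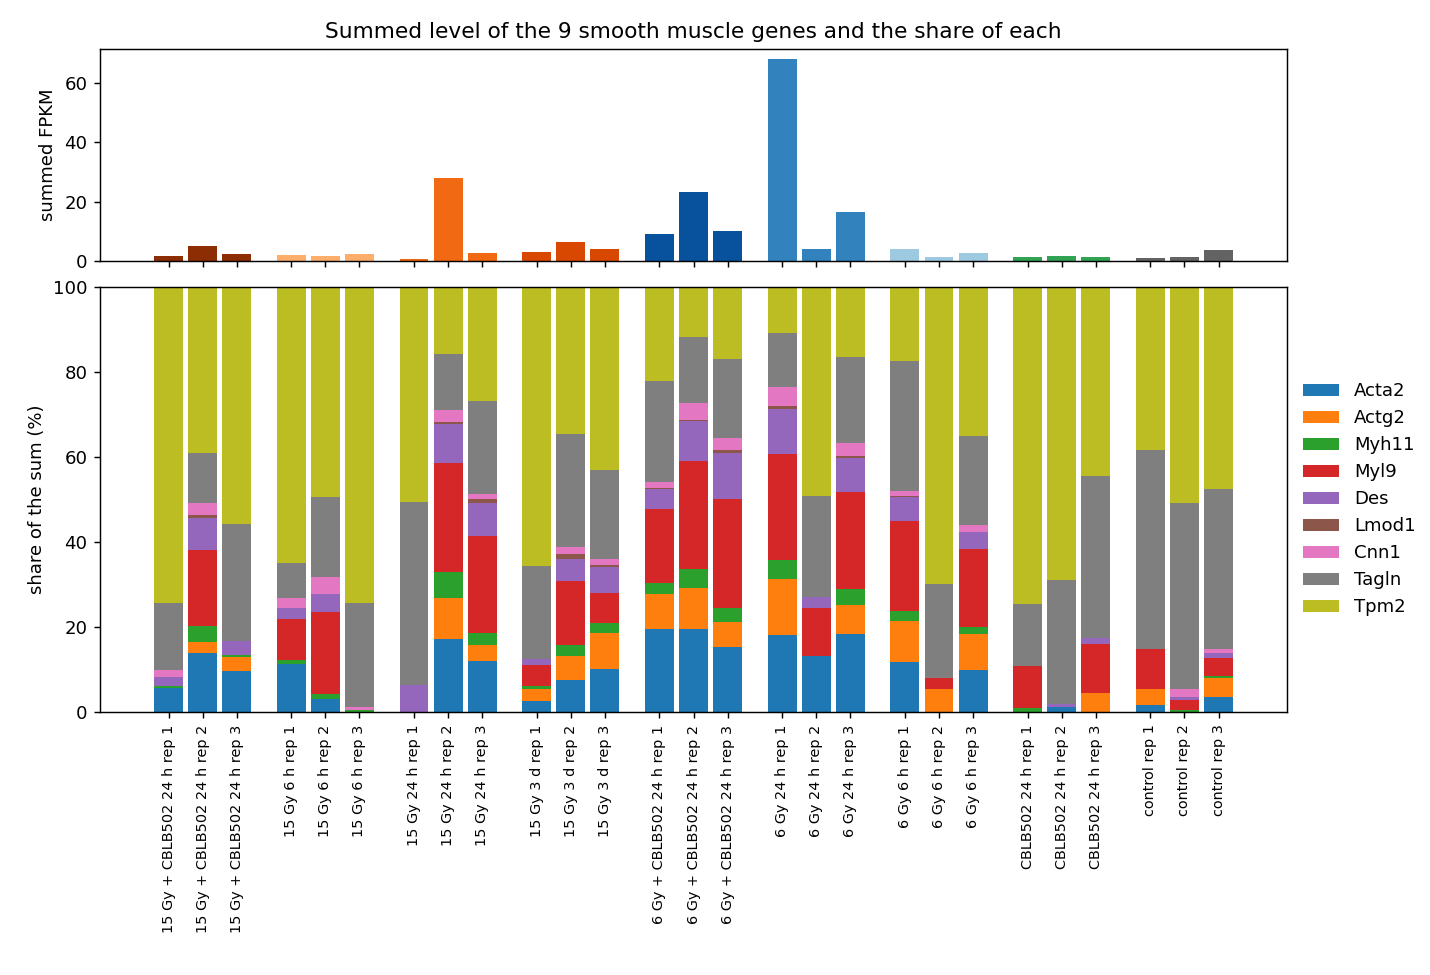
Summed FPKM of the 9 genes in each library (upper bars, linear axis from 0) and the percentage of that sum from each gene (lower stacked bars), by group with control at the right. Tpm2 and Tagln make 85.1% to 94.6% of the sum in control libraries and 27.4% to 45.8% in 6 Gy + CBLB502 24 h.

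Within groups the 7 tested genes varied together, and more than genes of like abundance. The biological coefficient of variation was 146% for Acta2, 160% for Actg2, 159% for Myh11, 151% for Myl9 and 130% for Des, and lower for Tagln (65.7%) and Tpm2 (50.6%), against 33.5% to 51.1% for genes of the same abundance. After each gene's group means were removed, Pearson correlations of log2 CPM between pairs of the 7, over 27 libraries that share their depth, ran from 0.55 (Myl9 with Tpm2) to 0.88 (Acta2 with Des). The 8 other genes most like the mean of the 7 by this measure were Csrp1 (r = 0.89), Sparcl1 (0.81), Ercc5 (0.79), Lbr (0.79), Hfe (0.77), Cxcl14 (0.74), Fam133b (0.72) and Wdr18 (0.71). Csrp1, a LIM protein of the actin cytoskeleton, had 7.80, 1.91 and 3.21 FPKM in 6 Gy 24 h, 3.46, 5.01 and 4.13 in 6 Gy + CBLB502 24 h, and 0.562, 0.766 and 0.760 in control. By edgeR it rose by 2.05 ± 0.55 in 6 Gy 24 h (adjusted p = 0.00762) and by 2.01 ± 0.55 in 6 Gy + CBLB502 24 h (adjusted p = 0.00750).

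Among other parts of the contractile pathway some genes rose and some fell. Of 12 tested genes for myosin phosphorylation and thin filament regulation, 1 rose and 1 fell in 6 Gy 24 h against control. By edgeR the myosin light chain kinase Mylk rose by 0.53 ± 0.15 (adjusted p = 0.0123) and the kinase Rock1 fell. Rhoa and Tpm1, among the most abundant of that list, were not called. In 6 Gy + CBLB502 24 h none of the 12 was called by edgeR or with median-ratio scaling, and 6 were by limma on log2(FPKM + 1), the scale that carries the common shift. Of 10 tested dense plaque and dense body genes, 3 rose (Flna, Actn1 and Csrp1) and 3 fell (among them Itgb1 and Palld) in 6 Gy 24 h. Over all 11118 genes tested, 16.6% were called higher and 1826 genes lower there. By limma on log2(FPKM + 1) 6 of the 10 rose and none fell, where 5806 of 11118 genes were called higher. The lists were not tested against these shares.

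Among 6 tested transcription factors of smooth muscle, serum response factor (Srf) and Klf4 fell in both 6 Gy 24 h groups in the count fit. Srf was lower by -0.56 ± 0.16 in 6 Gy 24 h (adjusted p = 0.0108) and by -0.62 ± 0.16 in 6 Gy + CBLB502 24 h (edgeR adjusted p = 0.00534). Its FPKM overlapped, at 6.71 to 7.76 in 6 Gy 24 h and 6.61 to 7.53 in 6 Gy + CBLB502 24 h, against 5.91 to 8.11 in control, and limma on FPKM did not call it. Mef2d rose in 6 Gy 24 h, a call lost under median-ratio scaling, and Myocd, the muscle-restricted partner of Srf, had no count in any of the 27 libraries. Of 2 tested channel genes the calcium release channel Itpr1 rose in edgeR, by 2.01 ± 0.45 in 6 Gy 24 h (adjusted p = 0.00231) and by 1.73 ± 0.45 in 6 Gy + CBLB502 24 h (adjusted p = 0.00507). Itpr1 also rose in 15 Gy 24 h, by 2.13 ± 0.45 (edgeR adjusted p = 0.00980), where none of the 9 smooth muscle genes was called. Of 9 tested non-muscle actin and myosin genes 5 fell in each 6 Gy 24 h group, among them Actb, by -0.99 ± 0.23 (edgeR adjusted p = 0.00283) in 6 Gy 24 h. Over all 11118 genes tested, 1826 were called lower in 6 Gy 24 h and 1945 in 6 Gy + CBLB502 24 h. On the FPKM scale limma called 2 of the 9 lower and 3 higher in 6 Gy 24 h.

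Markers of other cells moved with these groups. Col1a1, a fibroblast collagen, had 4.02, 4.65 and 3.09 FPKM in 6 Gy 24 h. In 6 Gy + CBLB502 24 h it had 4.61, 2.86 and 1.75 FPKM, against 0.0314, 0.00911 and 0.0565 in control. Of the 14 fibroblast genes listed 5 were tested, and 4 of them rose in each group. Col1a1 exceeded the FPKM minimum of the filter on low values in every library of both groups. The filter thus favours such calls, and the count of 4 cannot be weighed fairly against the share of all genes tested called higher. That share was 16.6% in 6 Gy 24 h and 19.8% in 6 Gy + CBLB502 24 h. Exocrine pancreas genes, 16 in the list, summed to 71.8, 5438 and 93.7 FPKM in 6 Gy 24 h and 1139, 170 and 1738 in 6 Gy + CBLB502 24 h, against 9.27, 9.39 and 10.0 in control, and 15 of 15 tested rose in both. The filter favours calls of the pancreatic genes, whose sums were high in these groups, in the same way. Of 12 tested epithelial genes 10 fell in 6 Gy 24 h and 9 in 6 Gy + CBLB502 24 h. Over all 11118 genes tested, 1826 and 1945 were called lower there. Limma on FPKM called 4 of the 12 epithelial genes lower in each, among them Fabp2 and Krt20.

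Library by library these markers did not run in parallel with the muscle genes. Replicate 2 of 6 Gy 24 h had the most pancreatic RNA of all libraries, 5438 FPKM, and the lowest smooth muscle sum of its group, 4.18 FPKM, while its Col1a1 was 4.65 FPKM. Replicate 2 of 15 Gy 24 h had a smooth muscle sum of 28.1 FPKM with Col1a1 at 0.0534 FPKM and a pancreatic sum of 21.6 FPKM. The mural cell gene Rgs5, a marker of pericytes and vascular muscle, did follow the muscle genes in those libraries, with 2.30, 0.0662 and 0.570 FPKM in 6 Gy 24 h, 0, 2.38 and 0.143 in 15 Gy 24 h, and 0, 0 and 0.0663 in control; the 8 mural genes summed to 1.20 to 4.34 FPKM in 6 Gy 24 h, 1.97 to 3.03 in 6 Gy + CBLB502 24 h, 0.685 to 3.26 in 15 Gy 24 h and 0.335 to 0.676 in control. Mcam, another of the 8 mural genes, was not called against control by edgeR. Its difference was 0.88 ± 0.52 in 6 Gy 24 h (edgeR adjusted p = 0.200) and 1.08 ± 0.52 in 6 Gy + CBLB502 24 h (0.110). In 15 Gy 24 h it was -0.18 ± 0.52 (edgeR adjusted p = 0.890). The part of these other cell types in the results above was not tested.

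**Figure D4:**
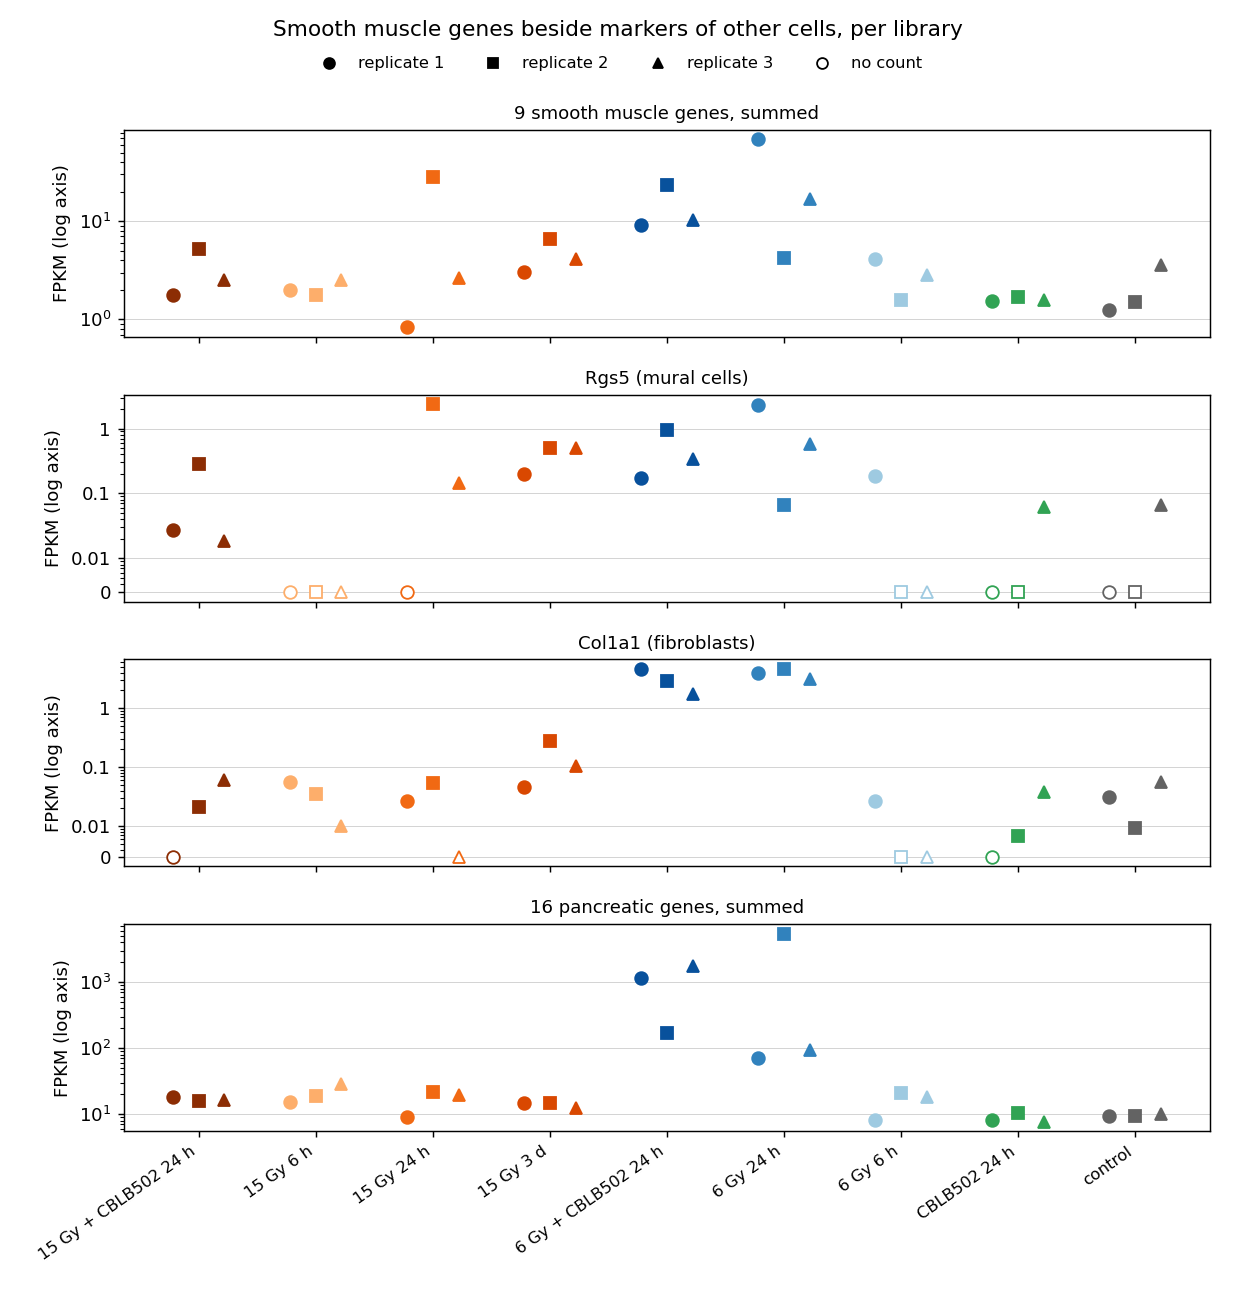
Summed FPKM of the 9 smooth muscle genes, FPKM of Rgs5 and of Col1a1, and summed FPKM of 16 pancreatic genes (log axes) in each library, by group; open markers are libraries with no count. Col1a1 and the pancreatic genes are high in all 6 libraries taken 24 h after 6 Gy, whereas replicate 2 of 15 Gy 24 h is high for the smooth muscle genes and Rgs5 and low for Col1a1.

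Of the 16 skeletal and cardiac muscle genes listed, skeletal alpha-actin, Acta1, is described. Acta1 was at 7.86, 3.45 and 3.46 FPKM in 6 Gy 24 h and 2.96, 4.19 and 3.07 in control (edgeR difference -0.04 ± 0.76, adjusted p = 0.973). In 6 Gy + CBLB502 24 h its difference was 0.17 ± 0.76 (edgeR adjusted p = 0.879), and in 15 Gy 24 h 2.24 ± 0.79 (0.101). The highest Acta1 value, 83.3 FPKM, was in replicate 3 of CBLB502 24 h, a library with a smooth muscle sum of 1.58 FPKM. Endothelial genes (8 in the list) summed to 0.491 to 0.849 FPKM in 6 Gy 24 h and 0.338 to 0.626 in control. Markers of the interstitial cells of Cajal, the pacemakers that lie within the muscle coat, summed to 0.401 to 0.780 FPKM in 6 Gy 24 h and 0.200 to 0.347 in control. Neither list reached 1 FPKM in sum in these 2 groups. Epithelial genes, by contrast, summed to 11029 to 13684 FPKM in 6 Gy 24 h and 15983 to 21135 FPKM in control.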

How the data were processed

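Total RNA of mouse intestine was sequenced in 27 libraries, grouped by their labels into 9 groups of 3. The authors deposited 1 table with a whole-number count and an FPKM value per gene and library; per the submitters' processing notes Bowtie 0.12.2, HISAT2 2.0 and StringTie 1.3.0 were used and the build mm8 is named, without roles. Which program counted reads, and with what strand setting, was not stated in these sources. The coordinates in the deposited table equal those of GENCODE vM21 on GRCm38 for 51957 of 55141 gene IDs, so they are printed on that build. The deposited FPKM of 0.0001 stands for a count of 0 and was set to 0.

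The 9 genes and the other gene lists were chosen with earlier results of these data known. Genes with at least 1 FPKM in at least 3 libraries (11118 of 55401) were fitted on the deposited counts with edgeR 4.0.16 (R 4.3.3, TMM scaling, quasi-likelihood test, all 27 libraries, adjusted p under 0.05). This step was run on simulated counts that lacked the pile-up on steps and the near-empty control groups. The simulation therefore does not cover calls on most of the 9 genes. Other lists are given by counts of calls; genes of theirs named because they were called were picked after their values were seen, and up to 3 of the most abundant of each list could be named whatever their change; a few list genes are not reported here. Alternatives were median-ratio scaling, no filter, a replicate block, limma 3.58.1 on log2(FPKM + 1) and log2(FPKM + 0.1), DESeq2 1.42.0, mitochondrial genes left out, the compared groups alone, the 6 libraries of 6 Gy at 24 h left out, each library left out, and, chosen after seeing the data, counts divided by 4. Total counts of 57.4 to 87.1 M, or 14.4 to 21.8 M steps, leave most of the 9 genes with few reads in control.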

Additional observations from a re-analysis of the deposited data

How the results depend on the processing

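Numbers of the 7 tested genes that passed an adjusted p of 0.05 were compared across settings. Against control, 6 Gy 24 h had 4 called by edgeR and 7 by limma on FPKM with either pseudocount; leaving out 1 library gave 0 to 6. For 6 Gy + CBLB502 24 h the 3 calls became 1 with the replicate block and 5 by limma with 0.1 added, and 0 to 3 without 1 library. For 15 Gy 24 h against control DESeq2 called 2, against 0. For 15 Gy 6 h against 6 Gy 6 h DESeq2, the compared groups alone and leaving out all 6 libraries taken 24 h after 6 Gy each called 1, against 0. For 15 Gy 24 h against 6 Gy 24 h limma called 1 with either pseudocount, against 0, and leaving out 1 library gave 0 to 2. For 6 Gy 24 h against 6 Gy 6 h the 1 call became 0 with no filter, 5 and 4 by limma with 1 and 0.1 added, 3 by DESeq2 and 3 with counts divided by 4, and 0 to 3 without 1 library. For 15 Gy 24 h against 15 Gy 6 h the 1 call became 0 by limma with either pseudocount and with the compared groups alone, 4 by DESeq2 and 4 with counts divided by 4, and 0 to 5 without 1 library. For 15 Gy 3 d against 15 Gy 24 h leaving out 1 library gave 0 to 1. Limma on FPKM carries the common shift of the 6 Gy 24 h groups by construction; other causes were not tested. Alternative values for single genes were classed in part of the comparisons only. All 7 genes were classed for 6 Gy 24 h, 6 Gy + CBLB502 24 h and 15 Gy 24 h against control. They were also classed for the effect of CBLB502 within 6 Gy and within 15 Gy at 24 h. Elsewhere only the genes called were classed. These were Tpm2 between 6 h and 24 h after 6 Gy, and Actg2 between those times after 15 Gy. Of these values, 492 kept their direction and side of the threshold, 42 lost a call and 18 gained one. A further 18 turned in direction, all uncalled.

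The turned directions lay in 3 comparisons, 15 of the 18 from leaving out 1 library. For 15 Gy 24 h against control, where replicate 2 of 15 Gy 24 h turned 3 genes, the ranges of log2 differences without 1 library were -0.84 to 1.44 for Tpm2, -0.94 to 1.14 for Tagln and -0.46 to 5.13 for Actg2. For 6 Gy + CBLB502 24 h against 6 Gy 24 h, where replicate 1 of 6 Gy 24 h turned 6, they were -2.23 to 0.88 for Myh11, -1.964 to 0.83 for Des, -1.20 to 0.25 for Tagln, -1.73 to 0.59 for Acta2, -2.38 to 1.15 for Actg2 and -1.78 to 0.72 for Myl9. For 15 Gy + CBLB502 24 h against 15 Gy 24 h, where replicate 2 of 15 Gy 24 h turned 6, they were -5.74 to 0.78 for Myh11, -3.96 to 0.24 for Des, -0.74 to 1.34 for Tpm2, -2.004 to 0.070 for Tagln, -3.31 to 0.99 for Acta2 and -4.38 to 0.28 for Actg2. Limma on FPKM turned Actg2 at 6 Gy to 0.10 with 0.1 added, and Tpm2 at 15 Gy to 0.12 and 0.42 with 1 and 0.1 added.

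The labels number replicates 1 to 3 in each group, but in 0 of 36 pairs of groups did all 3 same-numbered pairs correlate above 0.1 (median r = -0.0029 over 108 pairs), so the block gave only the count above. Low counts limit the size of every ratio to control except those of Tagln and Tpm2.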
